A study of Homo sapiens with 12 samples.

Results

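CFAP45, CEACAM19, FAR2, GUCY1B2 and CCDC102B were taken because they stood among the lowest genes when SAFB1, SAFB2 and SLTM were depleted together in HEK293 cells, and FAR1 was added as the paralogue of FAR2 that was not among them. They are 6 of 58780 gene IDs counted and 6 of the 26688 genes tested. The labels give 4 groups of 3 poly(A) RNA libraries each, and the series text calls the 3 biological replicates. HEK293 is a human embryonic kidney cell line, used here as its Flp-In T-REx derivative. Control cells received control siRNA, SAFB1 KD cells an siRNA against SAFB1 (gene symbol SAFB), SLTM KD cells an siRNA against SLTM, and triple KD cells the siRNAs against SAFB1, SAFB2 and SLTM at once. Negative control siRNA was added to the single knockdowns until the total amount equalled that of the triple knockdown, so all groups carry transfected siRNA, and the cells were transfected populations rather than clones. SAFB2 KD libraries were not analysed here. In bulk RNA, fewer cells expressing a gene and less RNA per cell cannot be told apart.

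SAFB1, SAFB2 and SLTM are related nuclear proteins with an RNA-recognition motif and a SAP domain that bind purine-rich RNA, in particular within introns and L1 retrotransposon sequence. L1 elements are long interspersed repeats with 2 reading frames, and copies lie in the introns of many genes. The 6 genes have little in common by function. CFAP45 is a protein inside the doublet microtubules of motile cilia. CEACAM19 is a member of the carcinoembryonic antigen cell adhesion family. FAR1 and FAR2 reduce fatty acyl-CoA to fatty alcohols, which enter ether lipids and waxes. GUCY1B2 corresponds to a beta subunit of soluble guanylate cyclase, the nitric oxide receptor that makes cyclic GMP. CCDC102B is a coiled-coil protein of the centrosome linker.

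The description of these genes as coding and nearly lost held only in part. GUCY1B2 is annotated in GENCODE v44 as a transcribed unitary pseudogene, so 5 of the 6 are protein-coding. CFAP45 was the only one of the 5 selected genes below 10% of its control level, the other 4 retained between 18.1% and 23.8%, and FAR1 was not lost at all. CPM here means read counts per TMM-scaled library size, which corrects for depth and composition. Genes with a symbol that passed the test in triple KD against control, averaged 1 CPM or more on either side and had fully separate libraries were ordered by log2 fold change, and CFAP45 ranked 1 from the lowest, CEACAM19 ranked 5, FAR2 ranked 7, GUCY1B2 ranked 9 and CCDC102B ranked 10. CCDC102B lay just inside with a log2 fold change of -2.04, and ZRANB3 with -2.04, PROX1-AS1 with -2.03 and XK with -1.84 came next. POC1B and ZNF571-AS1 lay within the same range and were not among the genes chosen. Since these values chose the genes, the triple KD levels of all but FAR1 are given as a description without a test. Tests were run on the single knockdowns, of which SAFB1 KD against SLTM KD shares no library with the choice and both comparisons with control share its 3 control libraries.

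Depth ran from 56856228 to 75533510 counts per library. SAFB fell from 232.3 CPM in control to 45.3 in SAFB1 KD and 38.2 in triple KD, SLTM to 17.7% and 21.6% of control in SLTM KD and the triple, and SAFB2 from 126.2 to 29.1 in triple KD, while it stood at 209.0 in SAFB1 KD. All 7 HEK293 markers reached 1 CPM in a library, and none of 4 leukocyte or 4 squamous markers did. CDX2 (27.4 to 33.1 CPM) was the only one of 5 colon markers to do so, and COL1A1 (11.5 to 13.8 CPM) the only one of 4 fibroblast markers.

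The siRNAs are shown because a short match between an siRNA and another transcript can lower that transcript. Capitals mark the 7 bases that pair with bases 2 to 8 of the guide strand in each sense strand, 5′ to 3′.
SAFB1 siRNA: ggaccaagaugAUCAGAAatt
SAFB2 siRNA: ggacggucgugAUGGAUAatt
SLTM siRNA: gcauuagaauaAUUCGUGatt
The capitalised stretch of the SAFB1 siRNA occurred 2 times in the canonical transcript of FAR2, 1 time in that of FAR1 and 1 time in that of CCDC102B, and was absent from CFAP45, CEACAM19 and GUCY1B2. It occurs in 31.6% of 16028 coding transcripts. The stretches of the SAFB2 and SLTM siRNAs, present in 17.9% and 5.7% of these transcripts, were in none of the 6. The longest exact run shared by any siRNA, taken without its final tt, and any of the 6 transcripts was 9 bases. The part of such matches in the levels was not tested.

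CFAP45 showed the largest loss of the 6. It lies on the minus strand at chr1:159872364-159900165 (GRCh38), with 12 exons in its canonical transcript. Control libraries held 109, 135 and 114 reads, or 1.74, 1.81 and 1.51 CPM. SAFB1 KD libraries held 0.766, 0.609 and 0.745 CPM, and SLTM KD libraries 0.963, 0.905 and 1.07 CPM. In triple KD only 5, 6 and 10 reads were left, or 0.0876, 0.0866 and 0.158 CPM. None of the 4 groups overlapped with another, and the order was control, SLTM KD, SAFB1 KD and triple KD. The triple KD mean of 0.111 ± 0.0408 CPM (SD, n = 3) was 6.56% of the control mean of 1.69 ± 0.158 CPM, with an exact 95% Poisson interval of 13.0 to 32.1 on the 21 reads summed over the triple KD libraries against 321.9 to 397.1 on the 358 of control, which covers counting error only.

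Both single knockdowns also lowered CFAP45. In SAFB1 KD it fell by 1.26 on the log2 scale (SE 0.167, adjusted p = 5.62e-08, edgeR quasi-likelihood test, Benjamini-Hochberg adjusted across the 26688 genes). In SLTM KD it fell by 0.79 (SE 0.159, adjusted p = 0.000265). The difference between them, a log2 fold change of -0.47 for SAFB1 KD against SLTM KD with a 95% interval from -0.84 to -0.10, did not pass (adjusted p = 0.0781), although the libraries did not overlap.

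CEACAM19 lies on the plus strand at chr19:44662278-44684359, with 8 exons in its canonical transcript. Control libraries read 7.47, 6.51 and 6.41 CPM, SAFB1 KD libraries 6.25, 5.64 and 5.91, and SLTM KD libraries 5.50, 6.22 and 6.05. Triple KD libraries read 1.37, 1.10 and 1.23 CPM, which is 18.1% of control by the means. All libraries of both single knockdowns lay below the lowest control library, and those of both single knockdowns overlapped each other. Neither single knockdown passed the test, with log2 fold changes of -0.19 in SAFB1 KD (95% interval -0.34 to -0.05, adjusted p = 0.0964) and -0.19 in SLTM KD (-0.34 to -0.05, adjusted p = 0.0975). SAFB1 KD against SLTM KD gave 0.00 (-0.15 to 0.16, adjusted p = 0.987). CEACAM19 was thus the gene with the widest gap between triple KD and either single knockdown after CFAP45, at 4.82-fold from SAFB1 KD and 4.81-fold from SLTM KD by the means.

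FAR2, the best counted of the 5 selected genes, lies on the plus strand at chr12:29149016-29341121 and spans 192106 bases. Control libraries read 43.9, 43.2 and 44.7 CPM, SAFB1 KD libraries 25.6, 28.6 and 29.1, SLTM KD libraries 40.0, 40.9 and 37.4, and triple KD libraries 9.47, 9.43 and 10.5. No group overlapped another, and the triple KD mean of 9.78 ± 0.576 CPM was 22.3% of control. FAR2 fell by 0.67 in SAFB1 KD (SE 0.0393, adjusted p = 3.18e-21) and by 0.16 in SLTM KD (SE 0.0378, adjusted p = 0.00300). SAFB1 KD lay below SLTM KD by a log2 fold change of -0.51 (SE 0.0403, adjusted p = 8.57e-16). The SLTM KD call was lost without SLTM KD replicate 3, with a log2 fold change of -0.12 and an adjusted p of 0.0509. Over the 19 alternatives tried, that adjusted p ran from 9.47e-05 to 0.0509.

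FAR1, which lies on the plus strand at chr11:13668668-13732346, did not share the loss. Control libraries read 88.7, 90.6 and 86.2 CPM, SAFB1 KD libraries 91.4, 92.2 and 88.6, SLTM KD libraries 80.4, 85.1 and 82.1, and triple KD libraries 98.9, 100.9 and 96.0. The triple KD libraries lay above all others. FAR1 rose in triple KD with a log2 fold change of 0.16 (SE 0.0266, adjusted p = 1.09e-06). FAR1 was known not to be among the lowest genes of this comparison when it was added, so this test is not independent of the choice. In SLTM KD it fell by 0.10 (SE 0.0271, adjusted p = 0.00867), a call lost without control replicate 2 (adjusted p = 0.0959) or without SLTM KD replicate 1 (adjusted p = 0.102). SAFB1 KD gave 0.04 (95% interval -0.01 to 0.09, adjusted p = 0.471), and FAR1 was higher in SAFB1 KD than in SLTM KD with a log2 fold change of 0.14 (SE 0.0272, adjusted p = 0.000104).

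Per kb of exon the 2 reductases could be set side by side. With all annotated exons as the length, FAR1 stood at 11.5 ± 0.291 CPM per kb and FAR2 at 3.21 ± 0.0548 in control, against 12.9 ± 0.320 and 0.715 ± 0.0421 in triple KD (SD, n = 3). The share of FAR2 in the sum of both was 21.8% ± 0.721 in control, 14.6% ± 0.9998 in SAFB1 KD, 21.1% ± 0.742 with SLTM KD and 5.27% ± 0.416 in triple KD. With the length of the canonical transcripts, 3538 bases for FAR2 and 5266 for FAR1, these shares were 42.5%, 31.3%, 41.6% and 12.9%, so the level of the share depends on the length used and its order over the groups does not. Control and SLTM KD, neighbours in that order, differed by less than the SD of either. The sum of both per kb of all exons was 14.7 ± 0.236 in control and 13.6 ± 0.281 in triple KD, and per kb of canonical transcript 29.2 ± 0.213 and 21.5 ± 0.321, so the size of this difference depends on the length as well. The files list 5 pseudogene copies of FAR1 and FAR2 (FAR2P1, FAR2P2, FAR2P3, FAR2P4 and FAR1P1), and 0 of 5 reached the count minimum. Multi-mapping reads are not counted, so low counts do not show that these copies are silent.

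**Figure D1:**
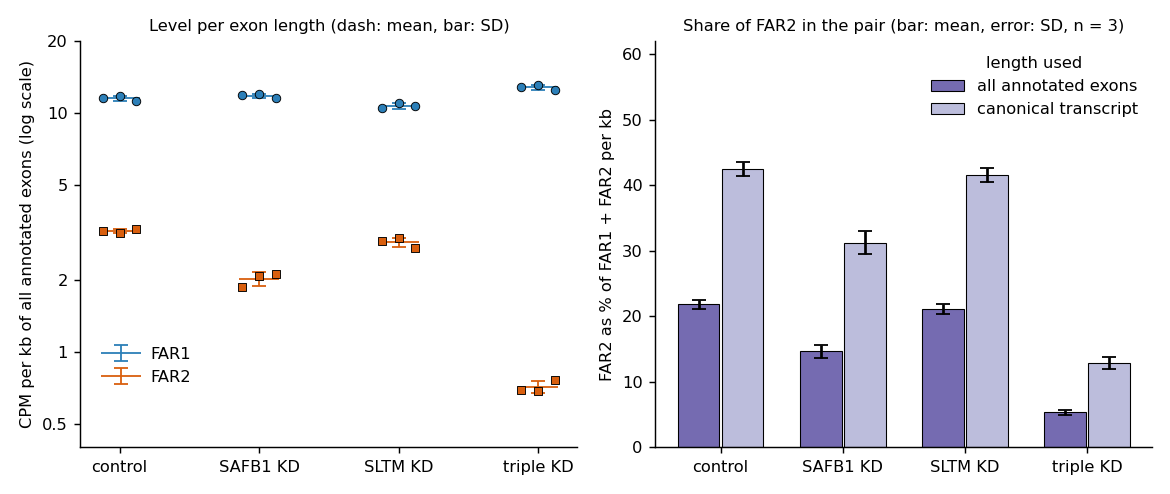
Left, CPM per kb of all annotated exons (log scale) of FAR1 and FAR2 in each library of the 4 groups, with mean and SD. Right, FAR2 as a percentage of the sum of both per kb with either length (mean and SD, n = 3), which falls from 21.8% to 5.27% or from 42.5% to 12.9% between control and triple KD.

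GUCY1B2 lies on the minus strand at chr13:50994511-51080862, with 13 exons in its canonical transcript. Control libraries held 91, 101 and 121 reads, or 1.45, 1.36 and 1.60 CPM. SAFB1 KD libraries read 0.843, 0.831 and 0.887 CPM, SLTM KD libraries 1.51, 1.19 and 1.62, and triple KD libraries 0.403, 0.346 and 0.300, the last from 23, 24 and 19 reads. SLTM KD overlapped control, whereas SAFB1 KD lay below both and above triple KD. GUCY1B2 fell by 0.79 in SAFB1 KD (SE 0.159, adjusted p = 0.000288) and lay below SLTM KD with a log2 fold change of -0.75 (SE 0.164, adjusted p = 0.000440). SLTM KD against control gave -0.03 with a 95% interval from -0.32 to 0.25 (adjusted p = 0.951), which does not show that SLTM KD left it as it was. The triple KD mean was 23.8% of control.

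CCDC102B, the longest of the 6 at 339981 bases, lies on the plus strand at chr18:68715209-69055189. Control libraries read 1.44, 1.12 and 1.51 CPM, SAFB1 KD libraries 1.24, 1.04 and 1.19, SLTM KD libraries 1.40, 1.53 and 1.34, and triple KD libraries 0.263, 0.433 and 0.268. The 3 groups other than triple KD overlapped, except SAFB1 KD with SLTM KD, and triple KD lay below all of them at 23.7% of control. No comparison between these groups passed. The log2 fold change was -0.23 in SAFB1 KD (95% interval -0.53 to 0.08, adjusted p = 0.449), 0.07 in SLTM KD (-0.22 to 0.37, adjusted p = 0.867) and -0.30 in SAFB1 KD against SLTM KD (-0.61 to 0.01, adjusted p = 0.224). With 287 control reads in all, these intervals leave room for changes in the single knockdowns, so the lack of a call does not show that none occurred.

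**Figure D2:**
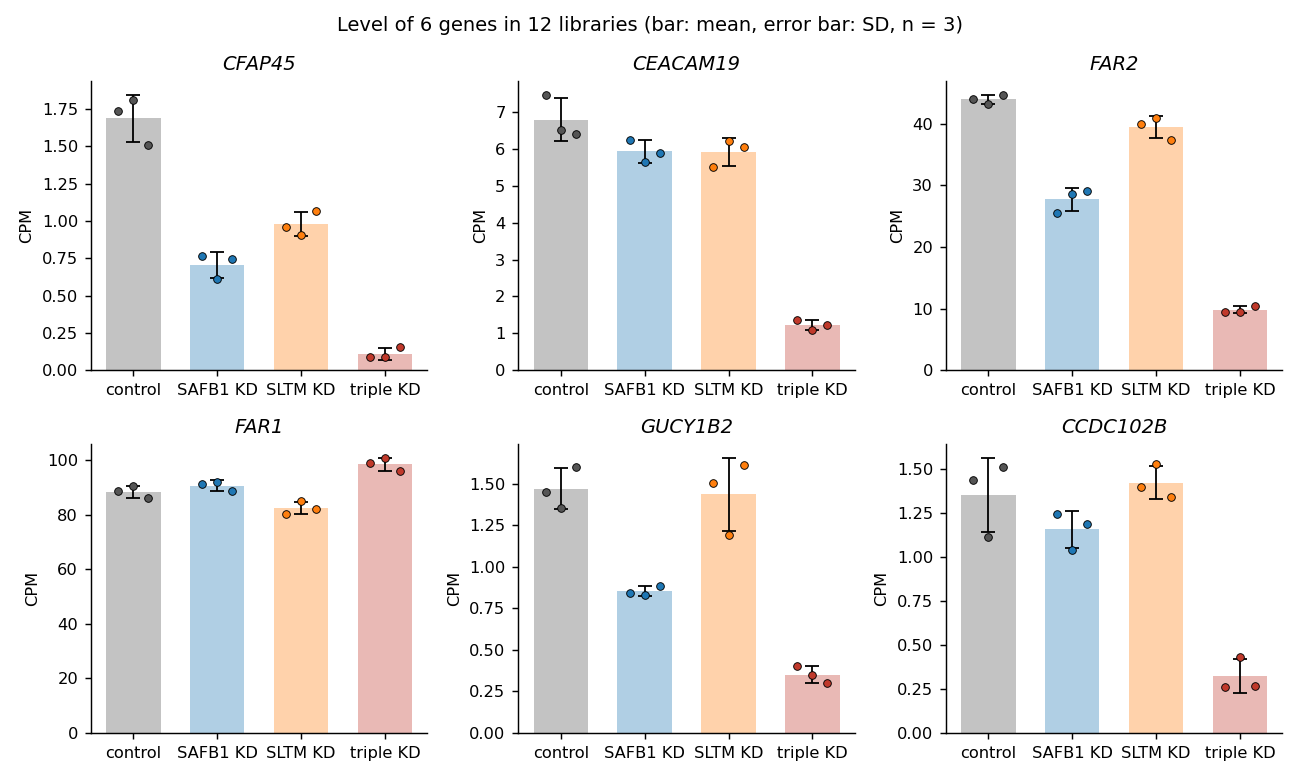
Level in CPM of the 6 genes in the 12 libraries, 1 panel a gene with its own axis from 0, points for libraries, bars for means and error bars for SD (n = 3). The triple KD mean is the lowest of the 4 groups for the 5 genes chosen for low triple KD values, and the highest for FAR1. Separation from control was a condition of the ranking that chose the 5. Of all genes tested, 20.9% were called lower and 19.4% higher in triple KD against control.

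Across the 6 genes, 3 were called in each comparison of single knockdowns. In SAFB1 KD against control 3 were lower (CFAP45, FAR2 and GUCY1B2) and 0 higher, where 4.62% of all genes tested were called lower and 5.04% higher. In SLTM KD against control 3 were lower (CFAP45, FAR2 and FAR1), where 5.65% of all genes were called lower and 3.6% higher. In SAFB1 KD against SLTM KD 2 were lower (FAR2 and GUCY1B2) and FAR1 was higher, against 6.78% of all genes lower and 9.27% higher. All 6 averaged at least 1 CPM in control, and shares were larger among the 13974 genes that did. There 8.24% were called lower and 9.12% higher in SAFB1 KD, and 10.4% and 6.01% in SLTM KD. For SAFB1 KD against SLTM KD these shares were 11.4% and 17.0%. Upper-quartile scaling turned the balance of calls over all genes in SLTM KD from 1509 lower and 962 higher to 1146 lower and 1552 higher, and in SAFB1 KD against SLTM KD from 1809 lower and 2473 higher to 2340 lower and 1780 higher, while the members called stayed at 3 in both. In triple KD it moved them from 5591 lower and 5174 higher to 4886 lower and 5963 higher. In triple KD against control 20.9% of all genes were called lower and 19.4% higher, and the 5 selected genes were lower by their choice.

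**Figure D3:**
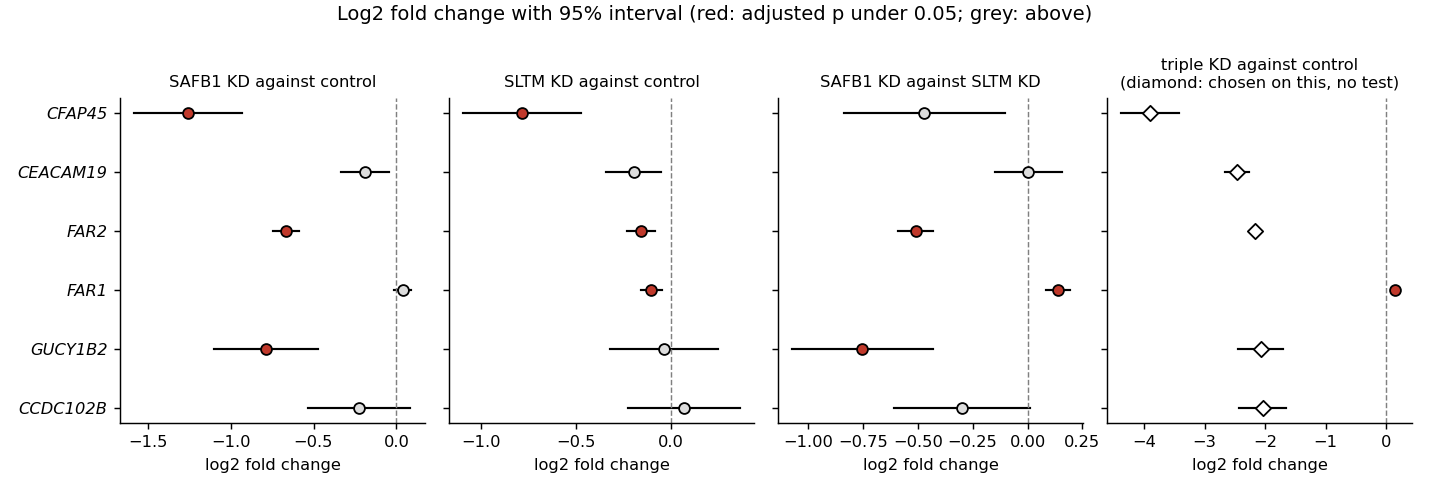
Log2 fold change of the 6 genes in 4 comparisons, each panel with its own axis, with 95% intervals from the standard error of the edgeR fit. Red points passed an adjusted p of 0.05, grey points did not, and open diamonds mark the comparison that chose the genes, where CFAP45 sits lowest at -3.91.

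For every selected gene the triple KD level was lower than the product of both single knockdown levels. CFAP45 was at 41.9% of control in SAFB1 KD and 58.0% in SLTM KD, a product of 24.3%, against 6.56% in triple KD. The product exceeded the triple KD level 3.70-fold for CFAP45, 4.20-fold for CEACAM19, 2.55-fold for FAR2, 2.39-fold for GUCY1B2 and 3.78-fold for CCDC102B. For FAR1 the product was 95.7% and the triple KD level 111.5%. These are descriptions without a test, because triple KD chose 5 of the genes, and the triple knockdown also carries the SAFB2 siRNA.

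Other genes of the same pathways moved in both directions. Over 5 lists and the pseudogene copies, 86 of 112 listed genes were tested, of which 16 were higher and 21 lower in triple KD, 3 and 7 in SAFB1 KD, and 3 and 5 in SLTM KD. The median log2 fold change over all 26688 genes tested in triple KD was -0.0044. Among 13974 genes with at least 1 CPM in control, 35.8% were called lower and 29.5% higher in triple KD. These shares were 8.24% and 9.12% in SAFB1 KD, and 10.4% and 6.01% in SLTM KD. Over all 26688 genes tested, 20.9% were lower and 19.4% higher in triple KD. There the shares were 4.62% and 5.04% in SAFB1 KD, and 5.65% and 3.6% in SLTM KD. The listed genes lie on both sides of 1 CPM, so neither set of shares matches them exactly.

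Of the other genes of fatty alcohol and ether lipid synthesis, 17 were tested and 9 were lower and 2 higher in triple KD, with a median log2 fold change of -0.15. GNPAT, the peroxisomal acyltransferase that opens the pathway, fell by 0.43 on the log2 scale (adjusted p = 6.00e-22), from 108.9 to 80.8 CPM. CEPT1, which transfers choline or ethanolamine phosphate to diacylglycerol, fell by 0.37. SELENOI, an ethanolamine phosphotransferase, fell by 0.28, and ACSL4, an acyl-CoA synthetase that favours polyunsaturated fatty acids, by 0.35. In SAFB1 KD, 3 genes were lower and 1 higher, with GNPAT at -0.20 (adjusted p = 4.36e-08).

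Of the other proteins inside ciliary doublet microtubules, 31 were tested and 5 were higher and 3 lower in triple KD, with a median of 0.06. SAXO2 was the one that moved most among those named, from 3.08 to 1.14 CPM in triple KD (log2 fold change -1.42, adjusted p = 1.74e-14) and to 1.64 CPM in SAFB1 KD (-0.90, adjusted p = 8.59e-08). RIBC2 rose by 0.68 on the log2 scale, and CFAP53 fell by 0.40. SAXO2 was the only one of the 31 called in SAFB1 KD against control.

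Of the CEACAM and pregnancy-specific glycoprotein family, 6 of 21 genes in the files were tested. CEACAM1 was the only one called in triple KD, at 0.0418 CPM in control and 0.130 in triple KD, so it stayed below 1 CPM in both. The other 5 lay between 0.00889 and 0.296 CPM in these groups, with log2 fold changes from -0.21 to 1.79 and standard errors from 0.324 to 1.23, and the median of 0.77 over the 6 therefore describes no family rise.

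Of the guanylate cyclases and the cyclic GMP signalling genes, 19 were tested and 7 were lower and 3 higher in triple KD, with a median of -0.18. PDE9A, a phosphodiesterase specific for cyclic GMP, went from 28.6 to 9.39 CPM (log2 fold change -1.60, adjusted p = 2.27e-38) and was not called in SAFB1 KD (0.05, adjusted p = 0.548). GUCY1A2, an alpha subunit of soluble guanylate cyclase, fell by 0.84 in triple KD and by 0.35 in SAFB1 KD. GUCY1B1, the beta subunit of the active enzyme, fell by 0.53 from 37.8 to 26.1 CPM, and PDE11A by 0.73.

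Of the other genes listed for the centrosome linker, 13 were tested and 5 were higher and 2 lower in triple KD, with a median of 0.02. CROCC, which encodes rootletin, the main fibre protein of the linker, rose by 0.35 on the log2 scale, NIN by 0.23 and NINL by 0.19. The paper describes NIN as a protein that helps anchor the centrosome to microtubules, rather than as a linker protein. It also names the giant exon of NIN among those that SAFB binds and that are spliced more after SAFB depletion. CEP44 fell by 0.37 in triple KD and by 0.15 in SAFB1 KD.

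**Figure D4:**
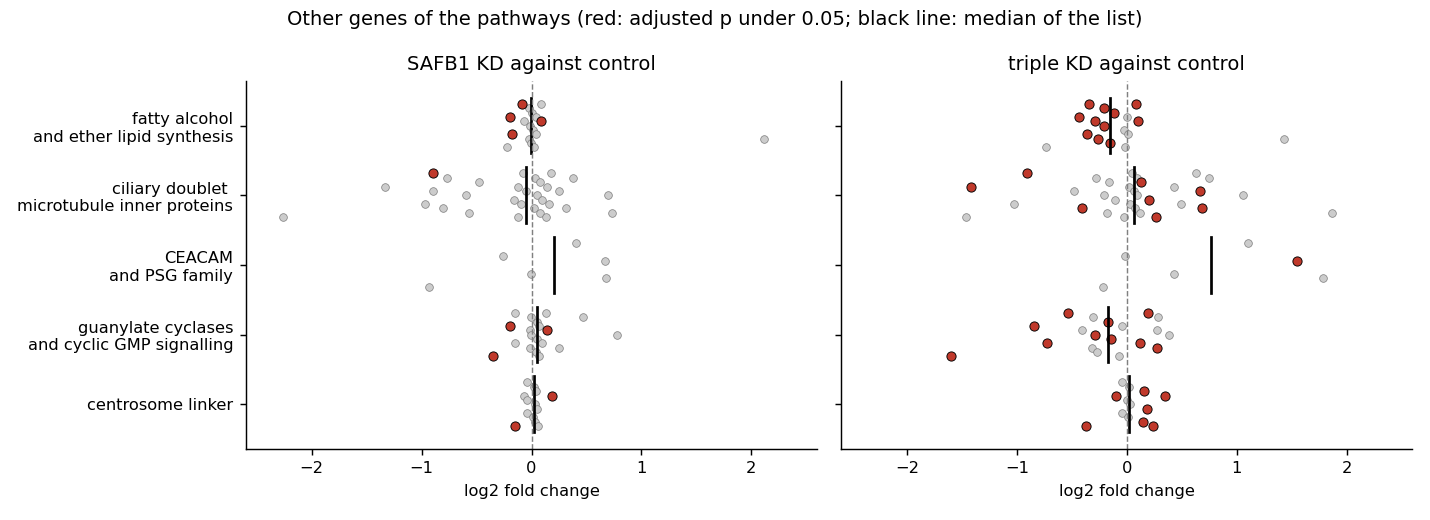
Log2 fold change of the other genes of each pathway in SAFB1 KD and triple KD against control, 1 point a gene, red where the adjusted p was under 0.05, with the median of each list as a black line. Few points pass in SAFB1 KD, and in triple KD the fatty alcohol list has 9 lower and 2 higher.

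Genes next to or overlapping the members were described in triple KD against control. Among 13974 genes with at least 1 CPM in control, 35.8% were called lower and 29.5% higher there, so a called neighbour was not unusual. TMX3, a thioredoxin-related membrane protein of the endoplasmic reticulum, starts 100 bases from CCDC102B on the opposite strand and went from 62.2 to 58.7 CPM in triple KD (log2 fold change -0.08, adjusted p = 0.0317), where CCDC102B stood at 23.7% of control. RefSeq gives a second promoter for CCDC102B at chr18:68797830-68798129, and its canonical transcript starts there, at base 68798080, so this distance holds for the upstream start only. Which start the reads came from was not tested. The stretch between both starts is shown in capitals within the upstream RefSeq promoter of CCDC102B (GRCh38, 300 bases around its start, plus strand, chr18:68714966-68715265), because it lies between the outermost annotated starts of both genes.
CCDC102B promoter: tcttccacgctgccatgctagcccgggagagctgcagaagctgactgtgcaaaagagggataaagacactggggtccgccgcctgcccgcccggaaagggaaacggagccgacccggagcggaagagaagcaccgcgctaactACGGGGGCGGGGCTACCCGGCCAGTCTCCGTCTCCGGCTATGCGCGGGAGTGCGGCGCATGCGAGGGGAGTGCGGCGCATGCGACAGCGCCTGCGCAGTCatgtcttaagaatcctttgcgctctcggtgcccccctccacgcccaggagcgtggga
Next to CFAP45, TAGLN2 had a log2 fold change of 0.05 (adjusted p = 0.0420). An unnamed protein-coding gene overlaps the end of CFAP45 by 690 bases on the same strand and held 15 reads over the 12 libraries. PVR, an adhesion receptor that overlaps CEACAM19 by 3885 bases on the same strand, was at 0.11 (adjusted p = 0.000278). An unnamed gene of unclear coding status inside CEACAM19, at the end of PVR, went from 12.1 to 15.3 CPM (0.35, adjusted p = 3.64e-08). The canonical CEACAM19 transcript starts at base 44671482, beyond the end of both genes, so they overlap the longer gene span only. Reads over exons of more than 1 gene on a strand are not counted for either.

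ERGIC2, which overlaps the end of FAR2 by 3770 bases on the opposite strand, fell by 0.38 on the log2 scale in triple KD (adjusted p = 1.63e-19), from 103.9 to 79.9 CPM. The canonical FAR2 transcript ends at base 29335616 and ERGIC2 begins at base 29337352, so that overlap holds for the longer gene span only. An unnamed lncRNA that overlaps the start of FAR2 by 9522 bases on the opposite strand was lower as well, with a log2 fold change of -1.59 (adjusted p = 0.0115), at 0.180 CPM in control and 0.0604 in triple KD. CCDC91, 567504 bases before FAR2, fell by 0.27 (adjusted p = 1.92e-09). RNASEH2B overlaps GUCY1B2 by 29610 bases on the opposite strand and fell by 0.10 (adjusted p = 0.00374), and SPON1, beyond FAR1, fell by 0.19 (adjusted p = 4.57e-05). These counts are stranded, so that reads of opposite genes are kept apart. The other tested genes next to or overlapping a member lay below 1 CPM in each group and were not called in triple KD. Of 18 genes wholly inside the 6 members, 8 reached the count minimum, and in triple KD the gene inside CEACAM19 was the only one called.

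The whole span of each gene was then searched for sequence that SAFB proteins are known to bind. The motif GAAGAA on the strand of the transcript occurred 0.915 times per kb in GUCY1B2, more than in 96.4% of 16015 tested coding genes, and 79 times in all against 38 on the other strand. CFAP45 held 0.755 per kb, more than 92.3% of coding genes. CCDC102B (0.571), FAR2 (0.567) and FAR1 (0.503) lay nearer the median of 0.452, and CEACAM19 (0.362) below it. FAR2 held 132 on the opposite strand against 109 on its own, and FAR1 47 against 32. A high density was therefore not shared by the genes that were lost.

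The 200-base stretch with the most motifs is shown for GUCY1B2, the gene with the highest density, with each motif in capitals, on the transcript's strand, 5′ to 3′. It lies outside annotated exons and upstream of the canonical transcript, at chr13:51063463-51063662, and holds 3 motifs, and 0.125% of 5965785 such stretches over coding genes hold 3 or more.
GUCY1B2: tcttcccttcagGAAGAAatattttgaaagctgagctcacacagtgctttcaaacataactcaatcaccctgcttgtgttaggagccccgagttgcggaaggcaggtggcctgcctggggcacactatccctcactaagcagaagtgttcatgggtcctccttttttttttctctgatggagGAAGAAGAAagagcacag
In genes of like length, 37.0% held a stretch at least as dense.

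As a measure of L1 sequence, the study's 48 FISH probes of 22 bases against the second reading frame of human L1 were matched to each gene, with an 11-base end exact and at most 3 mismatches. In FAR2, 35 of the 48 probes matched on the sense strand within 1 window, outside annotated exons. In GUCY1B2, 27 matched on the sense strand within 3365 bases outside annotated exons (chr13:51073257-51076621) and 0 on the other strand. That run lies upstream of the canonical transcript, which starts at base 51062894, whereas the FAR2 run lies in an intron of its canonical transcript. At least as many probes in 1 window of 7000 bases were found in 9.5% of 1000 coding genes of like length for FAR2 and in 5.49% of 1001 for GUCY1B2.

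CCDC102B held 18 probes in its best sense window, as many as 35.3% of genes of like length, and 47 of 48 in the antisense direction at chr18:68785105-68788628, as 9.4% did. FAR1 held 2 sense matches, and CFAP45 and CEACAM19 held 0 on either strand. By these probes, long runs of sense L1 matches were present in FAR2 and GUCY1B2 and were not found in CFAP45 or CEACAM19. The probes were made against L1Hs, a human L1 element, so copies with more mismatches would be missed. Other sequence that the paper gives as SAFB targets, such as Tigger elements and pseudogenes, was not searched with them. What part this sequence has in the levels was not tested.

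**Figure D5:**
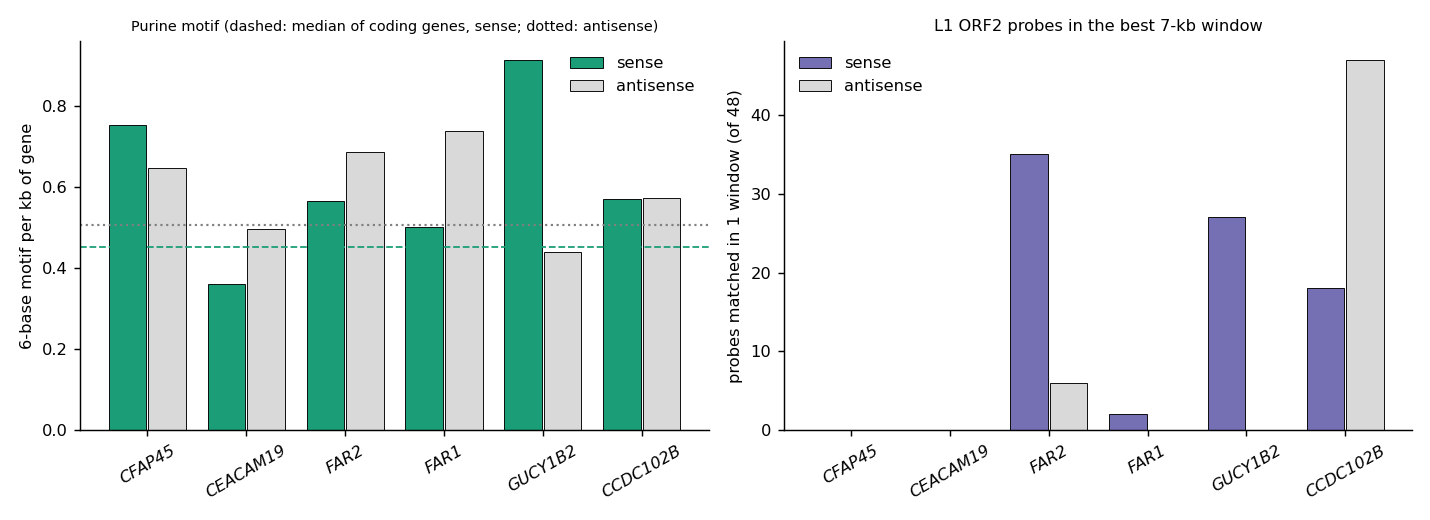
Left, the motif GAAGAA per kb of each gene on the sense and antisense strand, with the median of coding genes as lines (0.452 sense, 0.506 antisense). Right, the most L1 probes of 48 matched within 7000 bases on either strand, highest in sense for FAR2 (35) and GUCY1B2 (27) and in antisense for CCDC102B (47).

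The genes whose log2 CPM over the 12 libraries was most like each member were sought among 13434 genes with a symbol and at least 1 CPM in control. The libraries are shared and fall into 4 groups, so the correlations describe the pattern over groups and carry no p. CHDH was most like CFAP45 (Pearson r = 0.991), with 24.1 CPM in control and 12.9 in triple KD. SLC1A5 was most like CEACAM19 (r = 0.995), with 587.3, 569.1, 568.8 and 259.2 CPM in the order control, SAFB1 KD, SLTM KD, triple KD. PDE3B was most like FAR2 (r = 0.998), with 38.8, 29.6, 36.4 and 16.6 CPM in the same order, followed by GPATCH4 and TMBIM6.

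AIG1 was most like GUCY1B2 (r = 0.996), PKP4 most like CCDC102B (r = 0.986) and ZBTB18 most like FAR1 (r = 0.967). PROX1-AS1, which came after AIG1 and HEXD for GUCY1B2 (r = 0.991), went from 1.88 to 1.19 CPM in SAFB1 KD and to 0.460 in triple KD, with 1.97 in SLTM KD. Among the members, r between the 5 selected genes ran from 0.920 to 0.980, and r of FAR1 with them from -0.879 to -0.778. The 5 were chosen for low triple KD values and those libraries enter r, so high r among them follows largely from the choice. FAR1 was highest in triple KD, so the sign of its r with them follows as well.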

How the data were processed

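Poly(A) RNA of Flp-In T-REx HEK293 cells was sequenced as stranded libraries, 3 per group, called biological replicates in the series text. The deposited files hold raw read counts per gene, 1 library each, which the authors made by adaptor trimming with cutadapt, alignment to GRCh38 with STAR (version 2.7.9a in the submitters' processing notes) and counting of unique reverse-stranded reads with GENCODE models. Of 58780 gene IDs, 58207 (99.0%) were found in GENCODE v44 for the same build, which gave symbols and coordinates. Its gene models differ from the release the authors used. Multi-mapping reads are not counted.

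Counts were fitted with edgeR 4.0.16 in R 4.3.3 (TMM factors, all 12 libraries, a term for group, quasi-likelihood F tests, two-sided) for genes with at least 10 counts summed, and adjusted by Benjamini-Hochberg over 26688 genes. Calls are at an adjusted p under 0.05. CPM uses TMM-scaled totals. DESeq2 1.42.0 was an alternative. Depth ran from 56856228 to 75533510 counts. Error bars are SD over libraries. Sequence features were counted on the reference genome with Python.

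The genes, their pathway lists and the comparisons were chosen with earlier results of these data known. Named genes were the 6 members, the nearest coding gene on each side and tested genes inside them, the up to 4 most changed called genes per list with at least 1 CPM in a group, the 3 most correlated genes per member among those with at least 1 CPM in control, and the siRNA targets. The overlapping genes, and genes just outside the ranking that chose the members, were named after their values were seen, as were the motif and L1 probe searches. A named gene and a sequence that these rules gave are not reported here.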

Additional observations from a re-analysis of the deposited data

How the results depend on the processing

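The 23 results were recomputed under 19 alternatives, among them RLE and upper-quartile factors, 2 other filters, DESeq2, a fit of the compared libraries alone, a replicate block and the loss of each of 12 libraries in turn. Of 437 values, 423 were labelled unchanged. For fold changes this means the same direction and side of the threshold, and for counts of calls a change within a fixed ratio. A fall of the members called in SLTM KD from 3 to 2, and of the pathway genes called in triple KD from 37 to 30, thus counted as unchanged. The 3 calls lost are given with FAR1 and FAR2 above. The sign turned in 11 values of 3 uncalled results, none past the threshold (lowest adjusted p 0.811), and their cause was not tested. CEACAM19 in SAFB1 KD against SLTM KD turned to -0.01663 with upper-quartile factors, -0.0001818 with filterByExpr and -0.0005488 with only the libraries compared, and leaving out 1 library gave -0.04874 to 0.0404, with -0.03797, -0.0005354, -0.0005304 and -3.055e-05 among the turned values. Leaving out 1 library, GUCY1B2 in SLTM KD ran from -0.1225 to 0.07847 (0.03658 without control replicate 3), CCDC102B in SLTM KD from -0.05418 to 0.1664, and the members called in SLTM KD from 2 to 3.

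Whether the replicate numbers pair the libraries was not settled. Same-numbered deviations correlated from -0.025 to 0.139, over 0.1 in 1 of 18 pairs, against -0.111 to 0.0636 for other numbers. Of 12 libraries, 9 correlated best with their own number. A replicate block raised the calls over all genes in SAFB1 KD from 1232 lower and 1345 higher to 1569 and 1847. In SLTM KD it raised them from 1509 lower and 962 higher to 1861 and 1311. With the replicate block, FAR1 in triple KD had a log2 fold change of 0.16, the members called stayed at 3 in each comparison, and the pathway genes called were 36 rather than 37. The exon length used for the share of FAR2 was added after the data were seen. Below about 1 CPM, as for CFAP45 in triple KD, depth limits what a value can show.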
